A study of Mus musculus with 6 samples.

Results

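The complement system is a set of plasma and cell-surface proteins that mark microbes and dying cells for removal. C1q, a recognition protein assembled from A, B and C chains, starts the classical pathway, in which C4 and C2 form an enzyme that cleaves C3. Factor B (Cfb) and factor D (Cfd) build the C3-cleaving enzyme of the alternative pathway, and C5 (mouse gene Hc) leads to the membrane attack complex. The liver supplies most plasma complement, whereas tissue macrophages and immature dendritic cells are known as main sources of C1q.

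Complement components were taken as all probes whose annotated symbol was C1qa, C1qb, C1qc, C2, C3, C4b, Cfb, Cfd or Hc. Of these 9 genes, 7 were among the 19406 genes named on the array, with 10 probes among the 46619 of the value table. C3 and Cfd had none and were not analysed here. The 10 probes were read on 6 Illumina bead arrays of total RNA from medullary thymic epithelial cells (mTECs) with high MHC class II, 3 arrays from mice lacking Aire and 3 from wild-type mice, all C57BL/6. Aire is the transcriptional regulator that lets these cells express genes otherwise restricted to other organs, which exposes maturing T cells to self proteins. The sources used here do not give the knockout allele, any treatment, the age of the mice or whether a sample pooled animals, and p-values measure only the spread between these samples. Knockout replicate 2 and wild-type replicates 1 and 3 were female and the others male. Beadchip 1 held knockout replicate 1 with wild-type replicates 1 and 2, and beadchip 2 held the rest. By the date label, wild-type replicates 1 and 2 came before the other 4 arrays.

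Values are the deposited log2 values, in which a background level remains that compresses the changes of dim probes. A probe counted as above background on an array when it exceeded 6.8 log2 units, and 19537 probes (above this bound on at least 3 arrays) were tested. Aire itself read 10.22 ± 0.19 in knockout and 13.53 ± 0.13 in wild-type samples on its brighter probe (SD, n = 3 each). Of the listed mTEC markers 11 of 11 named genes were tested, of which 3 were called lower, 1 higher and 7 did not pass. Aire, the keratin genes Krt5 (-1.83) and Krt14 (-0.70) were lower and Tnfrsf11a, which encodes the receptor RANK, was higher (0.51), while Krt8, H2-Ab1 and Cd74 did not pass and had means between 13.46 and 14.36 log2 units in both genotypes. The part of these markers in the complement results was not tested. Over all tested probes, 17.7% were called lower and 20.7% higher in knockout samples (limma, Benjamini-Hochberg adjusted p under 0.05), and the median log2 change was 0.10.

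Of the 10 complement probes, 6 were tested, 1 each for C1qa, C1qb, C1qc, C2, Cfb and Hc. The 4 remaining probes, all for C4b, were not. In the knockout 5 of the 6 were called, against 38.4% of all tested probes called in either direction. The 5 were called lower, beside 17.7% of all tested probes, and 0 were called higher, beside 20.7%. In the same 5 the genotypes did not overlap, beside 21.0% of all tested probes with every knockout sample lower. Each of the 6 was above background on at least 2 arrays of each genotype. The falls were of unequal size: the 3 C1q chains changed by -1.26 to -1.41 log2 units, C2 by -0.41 and Hc by -0.36. A called fall of at least 1 log2 unit was seen for 3 of the 6, and for 6.13% of all tested probes.

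**Figure D1:**
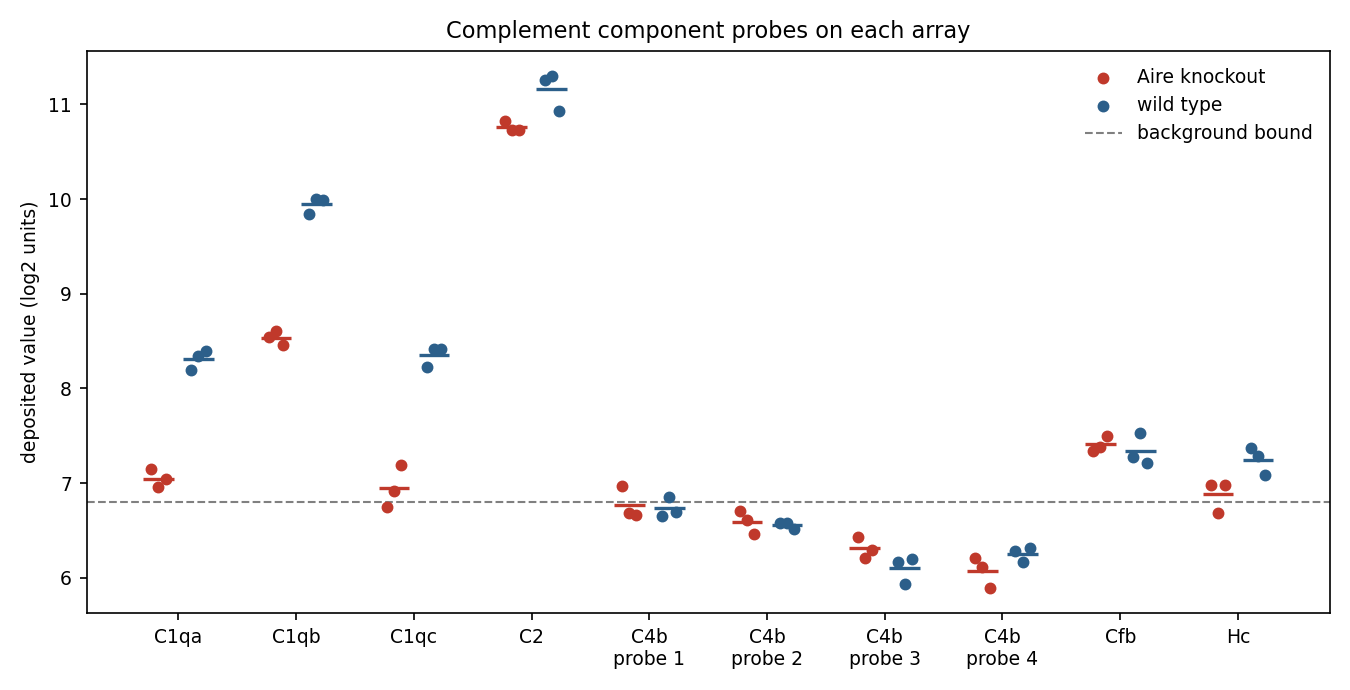
Deposited values (vertical axis, log2 units) of the 10 complement probes on each array, with Aire knockout samples left (red) and wild-type samples right (blue) within each probe, short lines at group means, and the background bound of 6.8 dashed. The knockout points of C1qa, C1qb and C1qc lie at least 1 log2 unit below the wild-type points, those of C2 and Hc lie lower by less, those of Cfb overlap, and 3 of the 4 C4b probes lie below the bound on every array.

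C1qb encodes the B chain of C1q. Its probe (5910292) read 8.542, 8.605 and 8.455 log2 units in knockout replicates 1 to 3, against 9.845, 9.999 and 9.991 in wild-type replicates 1 to 3. Every knockout sample was lower than every wild-type sample, with a gap much wider than the spread within either genotype. The group means were 8.53 ± 0.08 in knockout and 9.94 ± 0.09 in wild type (SD, n = 3 each), a log2 change of -1.41 (SE 0.10, limma adjusted p = 3.61e-06), which is 2.66-fold lower.

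C1qa encodes the A chain. Its probe (5390687) read 7.15, 6.96 and 7.04 log2 units in knockout replicates 1 to 3, against 8.19, 8.34 and 8.39 in wild-type replicates 1 to 3. The genotypes did not overlap, and the knockout values stood only slightly above the background bound. The means of 7.05 ± 0.10 in knockout and 8.31 ± 0.10 in wild type (SD, n = 3 each) gave a change of -1.26 (SE 0.10, limma adjusted p = 1.09e-05), or 2.39-fold lower.

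C1qc encodes the C chain. Its probe (5700131) read 6.75, 6.92 and 7.19 log2 units in knockout replicates 1 to 3, against 8.23, 8.42 and 8.42 in wild-type replicates 1 to 3. Knockout replicate 1 was below the background bound, and the knockout samples spread more widely for this chain than for the A and B chains. The means of 6.95 ± 0.22 in knockout and 8.35 ± 0.11 in wild type (SD, n = 3 each) gave a change of -1.40 (SE 0.13, limma adjusted p = 2.35e-05), or 2.64-fold lower. In total RNA of a sorted population, fewer cells that make a transcript and less of it per cell cannot be told apart.

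The calls of the C1q chains held with beadchip as a block and within each beadchip. Within beadchip 1 the changes were -1.12 for C1qa, -1.38 for C1qb and -1.57 for C1qc. Within beadchip 2 they were -1.39, -1.46 and -1.36 for the same chains. Set against wild-type replicate 3 alone, which shares the later date label with the knockout samples, the changes were -1.34, -1.46 and -1.46.

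The C1q genes lie next to each other on mouse chromosome 4, in the order C1qb, C1qc, C1qa in RefSeq's annotation of GRCm38. C1qa fell as well, but no upstream sequence was available for it. The 250 bases upstream of the RefSeq starts of C1qb (chr4:136886201-136886450, minus strand) and C1qc (chr4:136892915-136893164, minus strand) are shown because the C1q chains fell. Each is written 5′ to 3′ along its gene, with matches to GAGGAA, the core recognised by the myeloid transcription factor PU.1, in capitals on either strand.
C1qb: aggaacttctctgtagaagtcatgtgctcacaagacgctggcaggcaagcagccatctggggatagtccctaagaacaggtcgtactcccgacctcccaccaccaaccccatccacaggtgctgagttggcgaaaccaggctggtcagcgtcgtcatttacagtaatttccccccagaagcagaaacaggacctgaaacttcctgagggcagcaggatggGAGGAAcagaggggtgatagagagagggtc
C1qc: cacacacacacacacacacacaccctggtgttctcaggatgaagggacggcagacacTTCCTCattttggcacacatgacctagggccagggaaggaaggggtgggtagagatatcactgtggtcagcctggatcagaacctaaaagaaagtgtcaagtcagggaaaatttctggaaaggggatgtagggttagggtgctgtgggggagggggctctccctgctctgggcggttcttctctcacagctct
GAGGAA matched once in each window, beginning 30 bases before the start on the gene's own strand in C1qb and 193 bases before it on the opposite strand in C1qc. Of all 32851 RefSeq windows of this length, 23.3% hold it on either strand. The letters TATAAA (a core promoter box, in 12.4% of all windows), TGCTGAC (a Maf site, 3.81%) and TTCNNNGAA (a STAT site, 7.02%) matched neither window on either strand. Nor did the forms searched for a kappa B site (4.65% of all windows) and an interferon response site (2.98%). Such matches describe letters and not bound sites, and GAGGAA and TGCTGAC were added to the search after the C1q values were known.

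The genes flanking the C1q genes were then read by their position, a choice made after the C1q values were known. Epha8, an ephrin receptor kinase gene and the neighbour of C1qa, read 7.74, 7.59 and 7.58 log2 units in knockout replicates 1 to 3, against 9.30, 9.15 and 9.05 in wild-type replicates 1 to 3. It was lower in every knockout sample, by -1.53 on the log2 scale (SE 0.11, limma adjusted p = 3.27e-06). The next genes on that side did not pass: the tested Zbtb40 probe, for a zinc finger protein, changed by 0.16 (adjusted p = 0.360) and Wnt4, a secreted signalling protein, by -0.28 (adjusted p = 0.0941). On the other side Ephb2 had no named probe, and Lactbl1 and Tex46 were above background on no array.

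Since macrophages are a main source of C1q, the listed macrophage markers are given beside it. Of 17 named markers 11 were tested, of which 6 fell and 0 rose, beside 23.2% of tested named genes lower and 18.3% higher. Those that fell were Cd14, a co-receptor for bacterial lipopolysaccharide (-2.01), the lysozyme gene Lyz1 (-1.36), Trem2, a lipid-sensing receptor of macrophages (-0.95), the adhesion receptor Adgre1 of mature macrophages (-0.87), the mannose receptor Mrc1 (-0.73) and the scavenger receptor Marco (-0.51). Lyz1 was on the list, but the lysozyme of macrophages is Lyz2, which did not pass. Adgre1 and Marco lay above background on 0 of 3 knockout arrays and 3 of 3 wild-type arrays, so they entered the test through the wild-type samples, and at their bound they were at least 1.22-fold and at least 1.17-fold lower. With these genes at their bound the median change of the 11 markers was -0.23, against -0.50 with their fitted values and 0.02 over tested named genes. The calls of Cd14, Lyz1 and Trem2 held in all 21 alternatives, and that of Mrc1 ended within either beadchip and against wild-type replicate 3 alone. The Marco call ended with housekeeping scaling (-0.27) and within either beadchip, and the Adgre1 call within beadchip 1.

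Other markers of macrophages did not pass. Lyz2, the lysozyme of macrophages, read 12.69 ± 0.10 in knockout and 12.49 ± 0.26 log2 units in wild type, and the receptor kinase Axl 12.73 ± 0.04 in knockout and 12.52 ± 0.18 in wild type (SD, n = 3 each). Aif1, also known as Iba1, changed by -0.10 (adjusted p = 0.497), Slco2b1 by -0.19 and Spic, a transcription factor of iron-recycling macrophages, by -0.19. The scavenger receptors Cd163 and Msr1, the Fc receptor Fcgr1, Timd4 and Cd5l were above background on no array, and the receptor kinase Mertk on 1 wild-type array. Summed as antilog values, the 11 tested markers ranged from 16082 to 17158 in knockout and from 16177 to 18999 in wild-type samples. Axl and Lyz2, the brightest of the 11, make up most of these sums, which therefore say little about the dimmer markers that fell. Of tested named genes 23.2% were called lower and 18.3% higher. Of 11 named dendritic cell markers 5 were tested, of which 0 were called lower, 3 higher and 2 did not pass. Batf3 (1.35), Ccr7 (0.63) and Zbtb46 (0.59) were higher, and Siglech (0.30) and Cd8a (-0.05) did not pass. Itgax, Xcr1, Clec9a, Flt3, Sirpa and Cd209a were too dim to be tested. Of 5 tested thymocyte markers 2 were called lower, 0 higher and 3 did not pass. Cd3g (-1.01) and Cd3d (-0.61) were lower, and Cd8b1 (-0.31), Cd3e (-0.18) and Ptcra (0.02) did not pass. The part of these cells in the C1q result was not tested.

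**Figure D2:**
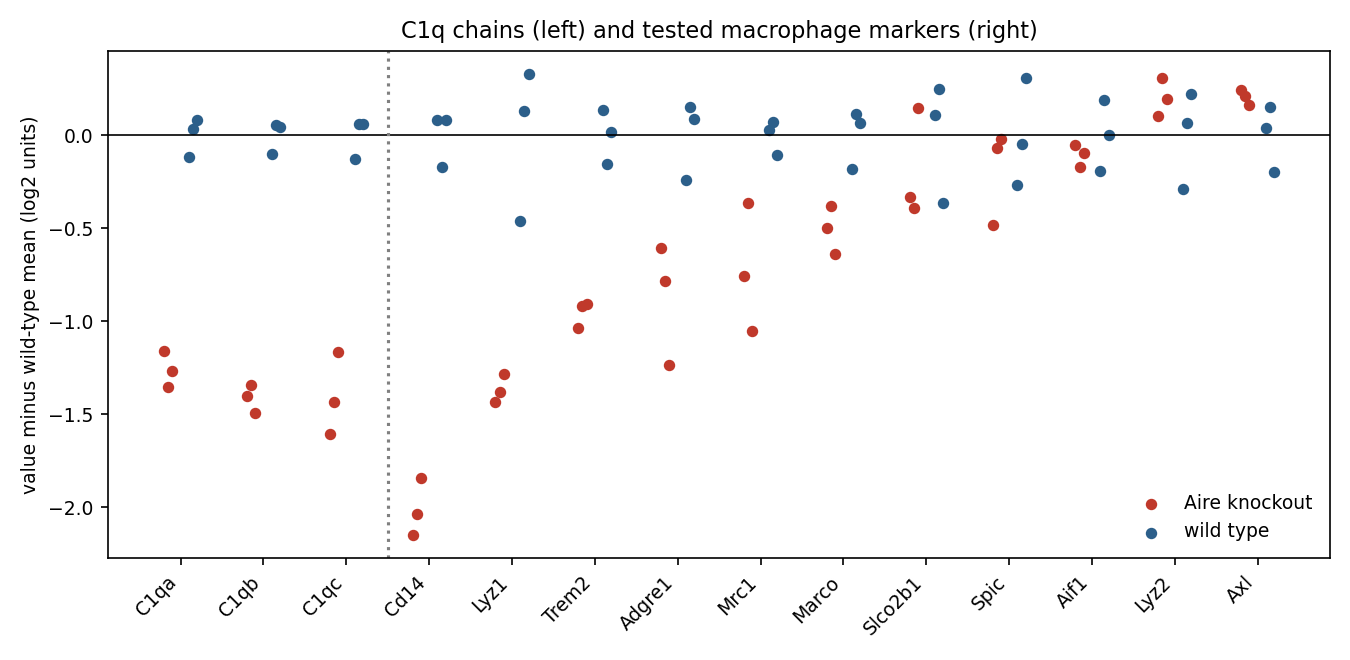
Values of the 3 C1q chains (left of the dotted line) and the 11 tested macrophage markers (right) on each array, as log2 units above or below the wild-type mean of the probe, with Aire knockout samples in red left of wild-type samples in blue. The C1q chains, Cd14 and Lyz1 lie more than 1 unit below the wild-type mean in every knockout sample, whereas Slco2b1, Spic, Aif1 and Lyz2 overlap between genotypes and Axl lies slightly higher in knockout samples without passing the test.

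C4 and C2 act after C1q. None of the 4 C4b probes was tested, as the brightest (3830100) was above background on 1 array of each genotype and the others on none. That probe read 6.97, 6.69 and 6.66 log2 units in knockout replicates 1 to 3, against 6.66, 6.86 and 6.70 in wild-type replicates 1 to 3, with the genotypes overlapping. The means of the other C4b probes lay between 6.07 and 6.59 in knockout and between 6.10 and 6.56 in wild-type samples. C4a, a near-identical copy of C4b also known as sex-limited protein, had 2 tested probes that disagreed. The brighter (5910341) read 7.04, 6.93 and 7.82 in knockout and 8.14, 8.30 and 8.19 in wild-type replicates 1 to 3, a change of -0.95 (SE 0.20, limma adjusted p = 0.00528). The other changed by -0.32 (adjusted p = 0.0576). The copies may share signal, so which of them a probe reads is uncertain. The call of the brighter C4a probe ended within beadchip 2 and against wild-type replicate 3 alone (-0.93 there).

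C2, the serine protease that C1s cleaves, read 10.82, 10.73 and 10.73 log2 units in knockout replicates 1 to 3, against 11.26, 11.30 and 10.93 in wild-type replicates 1 to 3. The genotypes did not overlap, but wild-type replicate 3 lay closer to the knockout samples than to the other wild-type samples. The change was -0.41 (SE 0.12, limma adjusted p = 0.0223, 1.32-fold lower). It was -0.33 with beadchip as a block (adjusted p = 0.0439), -0.46 within beadchip 1 (0.202), -0.21 within beadchip 2 (0.386) and -0.18 against wild-type replicate 3 alone (0.389).

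Cfb, the protease of the alternative pathway and the direct neighbour of C2 on chromosome 17, read 7.34, 7.38 and 7.50 log2 units in knockout replicates 1 to 3, against 7.28, 7.53 and 7.21 in wild-type replicates 1 to 3. The genotypes overlapped. The change was 0.07 (SE 0.11, limma adjusted p = 0.647), with a 95% interval of -0.18 to 0.32, and its sign turned with cyclic loess (-0.0881) and within beadchip 1 (-0.0602). It was largest with housekeeping scaling (0.30, adjusted p = 0.0743).

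Hc read 6.99, 6.69 and 6.99 log2 units in knockout replicates 1 to 3, against 7.37, 7.29 and 7.09 in wild-type replicates 1 to 3. All values were near the background bound, with knockout replicate 2 below it, and the genotypes were separated by only a narrow gap. The change of -0.36 (SE 0.12, limma adjusted p = 0.0421, 1.28-fold lower) kept its direction in all 19 alternatives that tested it and its call in 8 of them. It was -0.29 with beadchip as a block (adjusted p = 0.0876), -0.34 within beadchip 1 (0.327), -0.25 within beadchip 2 (0.404) and -0.20 against wild-type replicate 3 alone (0.423).

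**Figure D3:**
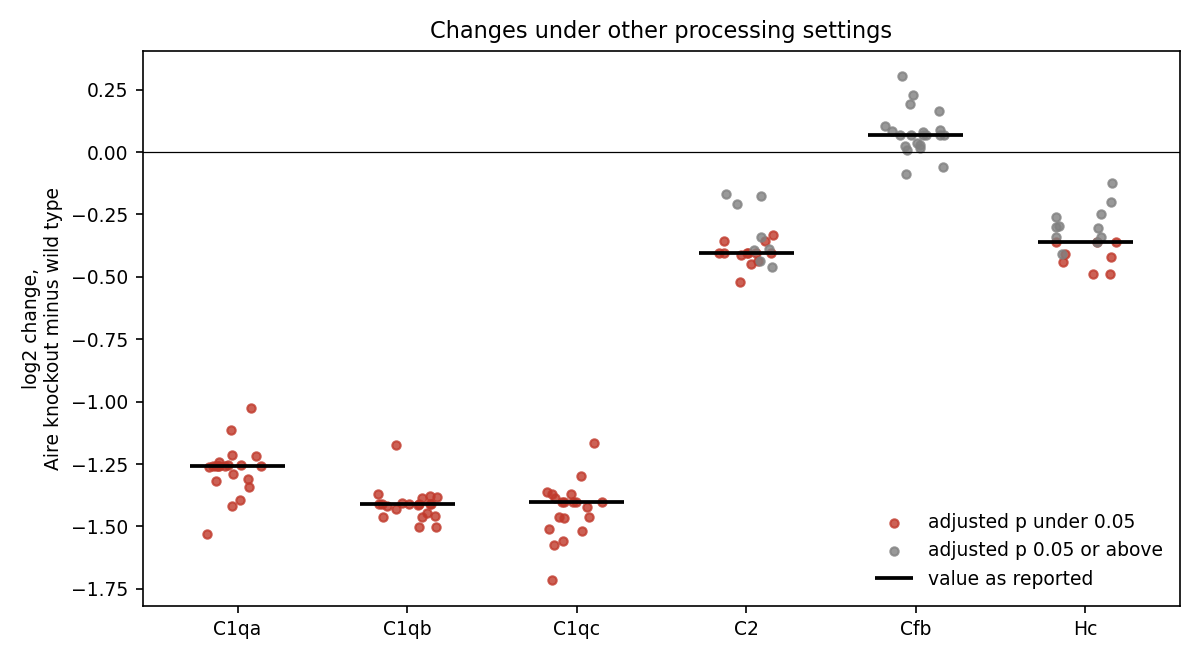
Log2 change, Aire knockout minus wild type (vertical axis), of each tested complement component under the value as reported (black line) and under each alternative setting (points, red where the adjusted p stayed under 0.05). The C1q chains stay red throughout, between -1.72 and -1.02, while C2 and Hc lose the call under several settings. Cfb lies between -0.09 and 0.30, below 0 in 2 of 21 alternatives, and is never called.

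C2, Cfb and C4b lie in the class III region of the MHC. Of 16 listed genes of that region with a named probe, 15 were tested, 2 fell and 0 rose, beside 23.2% of tested named genes lower and 18.3% higher, with a median change of -0.09. Tnxb, the extracellular matrix gene tenascin XB and the neighbour of C4b, changed by -0.93 on its brightest probe and by -1.03 and -1.12 on 2 others (limma adjusted p = 0.00148 for the first). Slc44a4, a membrane transporter gene, changed by -0.76 (adjusted p = 4.81e-04). Nelfe and Zbtb12, which flank the C2 and Cfb pair, changed by -0.08 and -0.11 and did not pass, nor did the 11 others.

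For the rest of the complement system, 44 further genes in 5 lists by role had a named probe and 25 were tested. Of these 12 fell, 4 rose and 9 did not pass, beside 23.2% lower and 18.3% higher of tested named genes, and their median change was -0.34 against 0.02. With the 5 genes that were above background in 1 genotype only set at their bound, that median was -0.21. Of the 12 that fell, Fcna, Fcnb, Colec11 and Cpn1 were above background on wild-type arrays only, so the counts favour genes that differ.

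Among genes of recognition and activation 6 of 9 tested fell and 1 rose, beside 23.2% of tested named genes lower and 18.3% higher. Masp1, among those that fell, changed by -0.42 (limma adjusted p = 0.0356), and its call held in 10 of 21 alternatives. Fcna encodes ficolin A, a sugar-binding starter of the lectin pathway that macrophages also make. It read 6.34, 6.36 and 6.24 log2 units in knockout replicates 1 to 3, against 9.67, 9.68 and 9.77 in wild-type replicates 1 to 3. Not above background on any knockout array, it was at least 7.49-fold lower (limma adjusted p = 9.61e-09), where "at least" sets the wild-type mean against the lowest signal above background. Mbl2, the liver's mannose-binding lectin C, read 6.52, 6.69 and 6.83 in knockout and 8.85, 8.99 and 9.08 in wild-type replicates 1 to 3, and changed by -2.30 (SE 0.12, adjusted p = 3.53e-07). Of its knockout values 1 of 3 was above background, so the size of that change is uncertain. Fcnb, ficolin B of the myeloid lineage, was at least 1.58-fold lower on its brighter probe, and its other tested probe changed by -0.42. Colec12, a scavenger receptor of the collectin family, rose to 7.49 ± 0.09 in knockout, against 6.72 ± 0.03 log2 units in wild type (SD, n = 3 each), at least 1.61-fold higher (adjusted p = 1.90e-04). The C1s proteases, partners of C1q in the C1 complex, did not pass, at 0.15 for C1s1 (adjusted p = 0.397) and 0.15 for C1s2 (0.261), and C1ra was not tested.

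**Figure D4:**
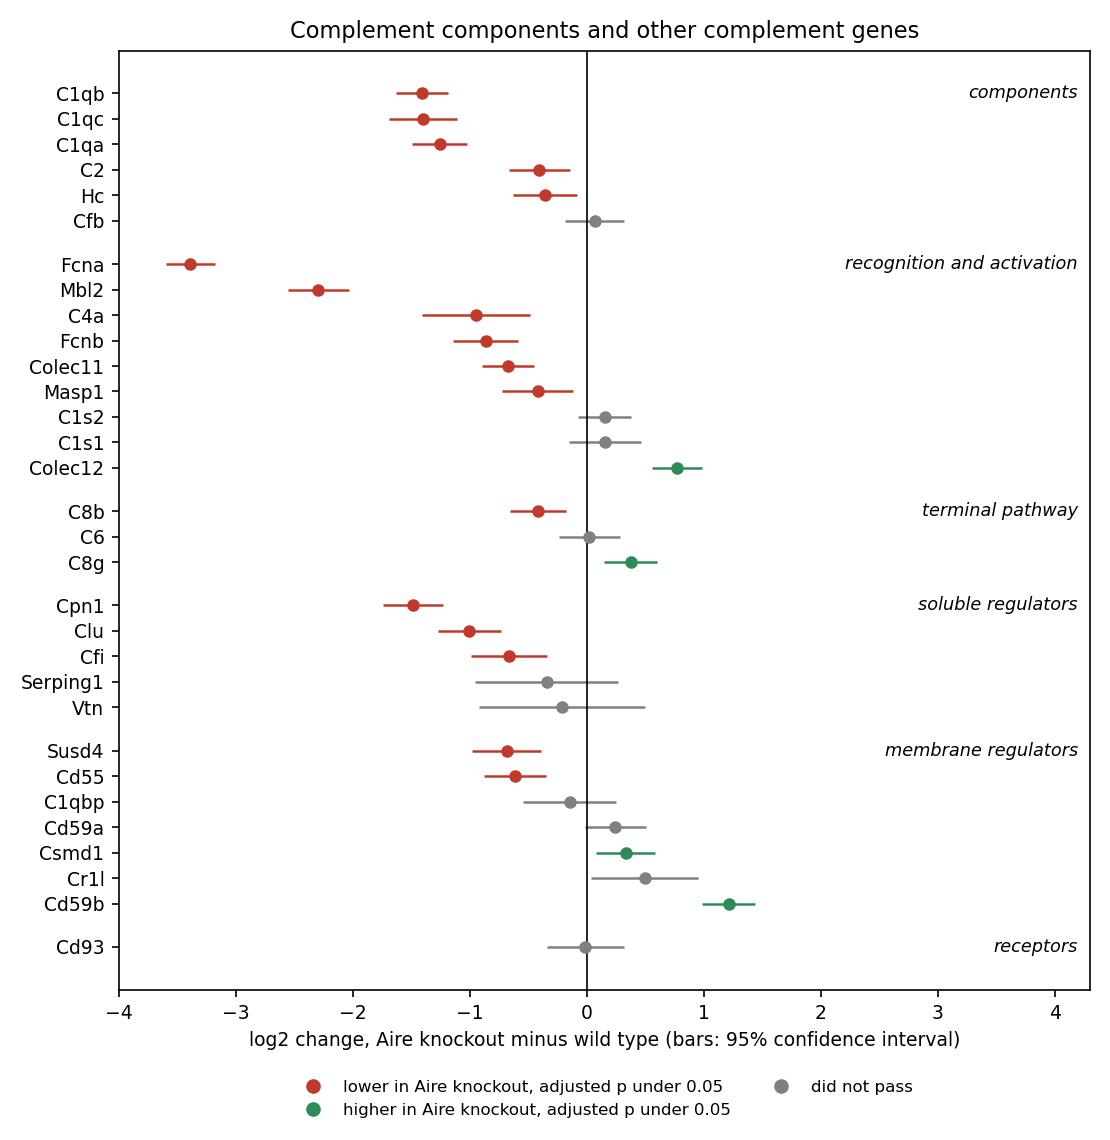
Log2 change, Aire knockout minus wild type (horizontal axis), with 95% confidence intervals, of the 6 tested complement components and the 25 other tested complement genes, grouped by role and coloured by call. Fcna (-3.39) and Mbl2 (-2.30) lie furthest left and Cd59b (1.21) furthest right; the points of Fcna, Fcnb, Colec11, Cpn1 and Colec12 are fitted values of genes above background in 1 genotype only.

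Of the terminal pathway genes, which follow Hc, 3 of 6 were tested. C8b, a subunit of the pore complex, read 7.05, 6.98 and 6.76 log2 units in knockout and 7.34, 7.32 and 7.38 in wild-type replicates 1 to 3, a change of -0.42 (limma adjusted p = 0.0121). C8g, the lipocalin-like gamma subunit, read 8.81, 9.04 and 8.90 in knockout and 8.58, 8.57 and 8.48 in wild-type replicates 1 to 3, a change of 0.38 (adjusted p = 0.0155). C6 changed by 0.02 (adjusted p = 0.904). The C8b call ended with housekeeping scaling (-0.18) and the C8g call with cyclic loess (0.26) and without knockout replicate 2, and both ended within either beadchip and against wild-type replicate 3 alone.

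Soluble regulators fell in 3 of 5 cases and rose in 0, beside 23.2% of tested named genes lower and 18.3% higher. Clu, or clusterin, which blocks insertion of the terminal complex, read 12.22, 12.10 and 12.49 log2 units in knockout and 13.38, 13.22 and 13.23 in wild-type replicates 1 to 3. It changed by -1.004 (SE 0.12, limma adjusted p = 1.48e-04), with no overlap between genotypes. Cpn1, the catalytic chain of the carboxypeptidase that inactivates anaphylatoxins, was at least 2.25-fold lower. Cfi, the protease factor I that degrades C3b and C4b, changed by -0.67 (SE 0.15, adjusted p = 0.00569), and by -0.34 against wild-type replicate 3 alone. Its call ended there and within either beadchip. Serping1, the C1 inhibitor, overlapped between genotypes, at 9.39 ± 0.61 in knockout and 9.74 ± 0.31 log2 units in wild type (SD, n = 3 each). Vtn changed by -0.21 and did not pass (limma adjusted p = 0.613).

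Membrane regulators fell in 2 of 7 tested cases and rose in 2, beside 23.2% of tested named genes lower and 18.3% higher. Cd59b, an inhibitor of the membrane attack complex, read 9.26, 9.26 and 9.29 log2 units in knockout replicates 1 to 3, against 7.93, 8.07 and 8.17 in wild-type replicates 1 to 3. It rose by 1.21 (SE 0.10, limma adjusted p = 1.10e-05), and the call held in all 21 alternatives. Its paralog Cd59a changed by 0.24 (adjusted p = 0.125); signal shared between the paralogs was not tested. Cd55, or decay-accelerating factor, above background on 1 of 3 knockout arrays, changed by -0.61 (adjusted p = 0.00294) and Susd4, a regulator of C1 and C3 convertases, by -0.69 (adjusted p = 0.00265), with the Susd4 call ending within either beadchip and against wild-type replicate 3 alone. Csmd1 rose by 0.33 (adjusted p = 0.0435) on the only 1 of its 7 probes that was tested, and its call held in 7 of 21 alternatives. Cr1l (Crry), the main rodent membrane regulator of C3, was higher in all 3 knockout samples without passing (0.49, adjusted p = 0.0820). Of the 9 receptor genes with a named probe, only Cd93 was tested and did not pass (-0.01), while C3ar1, C5ar1, C5ar2, Cr2, Vsig4, Itgam, Itgax and Itgb2 were not tested.

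Likeness of pattern was measured as the root mean square distance between the 6 array values of 2 genes, each centred on its own mean, over tested named genes. Nearest to C1qa were Acsbg3, Stat4 and Gstt2 (distances 0.0383 to 0.0510 log2 units). Nearest to C1qb were Pglyrp1, Fgf15 and Rxfp3 (0.0680 to 0.0766), and nearest to C1qc were Anln, Cela1 and Ccn5 (0.0490 to 0.0579). Nearest to C2 were Ccl22, Poldip2 and Prrc1 (0.0234 to 0.0431), and nearest to Hc were Polr1e, Phldb1 and 2310039H08Rik (0.0340 to 0.0399). No chain of C1q was among the 3 nearest of another. For called genes this distance depends largely on the size of the genotype change. With 693 probes, C1qb included, called lower at or below the C1qb change, such ranks do not show whether the chains vary together.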

How the data were processed

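The authors deposited normalized log2 values, 1 per probe and array, made with BeadStudio and lumi per the submitters' processing notes; how background was corrected and values normalized is not stated there. The 24 columns of the other deposited tables match no sample label and were not used. Symbols came from the platform annotation (32782 probes with 1 symbol, 55 with several, left unnamed, and 13782 with none). The background bound of each array was the mode of all values plus 3 SD of the values below it. The 2-sided test was limma's moderated one (version 3.58.1, R 4.3.3) with genotype as the sole term and Benjamini-Hochberg adjustment over 19537 probes; the method was tested on simulated data. List genes were represented by their brightest tested probe. Named were all members, up to 4 called genes per list (lists with few tested genes in full), Aire, and the 3 nearest patterns per called member; further genes were named after their values were seen. Members and lists were chosen with earlier results of these data known. The number of arrays limits precision. Deviations of same-numbered knockout and wild-type samples correlated at 0.20, -0.06 and -0.02, and those of differently numbered samples at -0.27 to 0.26. The numbers were therefore not used as pairs, though such correlations cannot exclude a pairing. Alternatives covered normalization, background, filters, beadchip, sex, date label, replicate number, variance model, array weights, size of change and single arrays left out. RefSeq windows and gene order are from GRCm38, and 5 of the 9 genes had an upstream sequence there.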

Additional observations from a re-analysis of the deposited data

How the results depend on the processing

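The C1q chains kept direction and call in every alternative that tested them (21, 21 and 20 alternatives). The count of complement probes called lower was 5 as reported and 3 with housekeeping scaling, above the bound on all 6 arrays (4 tested), within beadchip 1, within beadchip 2, with the date label as a covariate and with a log2 change of at least 1; with 1 array left out it ranged from 3 to 5, being 3 when knockout replicate 1, knockout replicate 2 or wild-type replicate 2 was the array left out. Without those arrays C2 changed by -0.44, -0.39 and -0.34 and Hc by -0.41, -0.26 and -0.34. Leaving out knockout replicate 3 ended only the C2 call among the members (-0.39), and leaving out wild-type replicate 1 only that of Hc (-0.30). None was called higher in any alternative (limma). The change of Cfb turned to -0.0881 with cyclic loess and to -0.0602 within beadchip 1. Housekeeping scaling, to the median of 24 genes, moved the median change of all tested probes to 0.34, and left C2 at -0.17, Hc at -0.12 and Cfb at 0.30. Cyclic loess moved that median to -0.00.

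Of all tested probes, 4042 were called higher and 3462 lower. The numbers higher and lower were 8856 and 2211 with housekeeping scaling, 514 and 1466 within beadchip 1, 907 and 1711 within beadchip 2, 1659 and 2248 with the date label as a covariate, and 334 and 1198 with a log2 change of at least 1. Higher calls numbered 2347 with cyclic loess, and lower calls 1895 above the bound on all arrays. With 1 array left out, higher calls ranged from 2467 (without knockout replicate 2; 2609 without knockout replicate 1) to 4125 and lower calls from 2772 to 3478. Of the other complement genes 4 were called higher and 12 lower. The numbers were 2 and 5 above the bound on all arrays (13 tested), 1 and 6 within beadchip 1, 2 and 6 within beadchip 2, 2 and 7 with the date label, and 1 and 4 with a log2 change of at least 1. Higher calls were 2 with cyclic loess and 8 with housekeeping scaling, and 2 to 4 with 1 array left out (2 without knockout replicate 2), when lower calls were 11 to 13. The replicate block left 5 complement probes called lower. Where the cause of a lost call is not fewer arrays or fewer probes, the cause was not tested. Values near background limit Hc, C1qc and C4b, and also C1qa in the knockout samples.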

Other observations

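Marker lists of other tissues that make complement gave these counts, beside 23.2% of tested named genes called lower and 18.3% higher. Of 5 tested adipocyte markers, from the cell type best known for factor D, 4 fell and 1 rose: the hormone gene Adipoq changed by -1.30, Cidea by -1.74, Cidec by -0.72 and the fatty acid binding protein gene Fabp4, above background in knockout samples only, was at least 1.14-fold higher. Plin4, with a fitted change of -0.51, was above background in wild-type samples only and so entered the test through them. Of 7 tested hepatocyte markers 6 fell, among them fibrinogen alpha (Fga, at least 4.79-fold lower) and hemopexin (Hpx, -2.39). Alb, Fgb and Fgg were above background on no array. Fibroblast markers were called lower in 1 of 4 tested cases, higher in 1, and 2 did not pass. Col1a1 (-1.31) was lower and Dcn (1.17, brightest probe) higher, while Pdgfra (0.17) and Pdgfrb (0.04) did not pass.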
